A study of Mus musculus with 8 samples.

Results

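The genes described here encode the beta-adrenergic and cyclic AMP (cAMP) machinery of the heart: 6 adenylyl cyclases (Adcy3, Adcy4, Adcy5, Adcy6, Adcy7 and Adcy9), the beta-1 adrenergic receptor Adrb1, the phosphodiesterase Pde4b, the protein kinase A regulatory subunit Prkar2b and the protein kinase A anchor Akap7. They were chosen as a list of 10 gene symbols. Of these, 9 had a named probe set on the array, out of 19933 genes tested, and Adrb1 was not analysed here. Left ventricles of 8 C57/Bl6 mice, 11 weeks old, were profiled with 1 Affymetrix mouse gene array each. The groups were PlGF mice (n = 2), which express placental growth factor in the heart, PlGF/RGS4 mice (n = 3), which by their label also express the G protein regulator RGS4, and control mice (n = 3). Both transgenic lines were Tet-OFF: the transactivator tTA was driven by the αMHC promoter, which is active in cardiomyocytes. Doxycycline in the diet held the transgenes off until 5 weeks of age, and they were then expressed for 6 weeks. Control mice were littermates that carried either the driver or the responder transgene alone, and the labels do not say which. Replicates are biological by their titles, sex is not given, and nothing further is said of litters, so p-values measure the spread between these samples.

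In the cardiomyocyte, binding of catecholamines to beta receptors activates the stimulatory G protein, which switches on adenylyl cyclase, and the cAMP made activates protein kinase A. Kinase A is held next to its substrates by anchoring proteins, and there it phosphorylates calcium channels, the ryanodine receptor, phospholamban and troponin I, which strengthens and speeds the beat. Phosphodiesterases end the signal by breaking cAMP down. RGS4 acts on the G protein side, by speeding the return of Gi and Gq proteins to their resting state.

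The study used these arrays to look for transcripts targeted by the microRNA miR-182, and it followed Adcy6 as one of them. Its candidate targets, which include Adcy6 and Akap7, were picked on these same arrays, so the levels of these genes below are not independent evidence of their direction. For Adcy6 the paper also gives quantitative PCR. It reports a lower level in PlGF mice, partly restored by an inhibitor of miR-182, and a lower level in mouse embryonic fibroblasts given a miR-182 mimic. In a separate experiment with pressure overload, the paper reports that Adcy6 also fell in control mice, where miR-182 did not rise. The mature miRNA, with bases 2 to 8 (the seed, which pairs with a target) in capitals, lies at chr6:30165962-30165986 on the minus strand (RefSeq, GRCm38.p6) and is printed because the comparison was built around it.
mmu-miR-182-5p: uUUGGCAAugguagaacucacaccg
The arrays do not measure mature miRNAs. The probe set named Mir182 read 16.1 and 16.1 in the PlGF arrays, 17.9, 16.1 and 16.1 in the arrays labelled PlGF/RGS4 and 16.2, 12.9 and 14.8 in control arrays, far below the median of any array.

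Promoters are shown for those members with a window whose mean log2 fold change in PlGF hearts was the largest in size, Adcy5, Adcy7, Adcy9 and Akap7. RefSeq windows of 300 bases, 250 before and 50 after a transcript start, were held for 9 of the 10 members, in 17 windows, Adcy6 not being among them. They were searched on both strands for the cAMP response element TGACGTCA and for its half-site TGACG, which lies within the full element. The full element was found in 0 of the 17 windows and in 1.79% of the 32851 windows of all genes. The half-site was found in 4 of the 17, those of Adcy7, Adcy9, Adrb1 and Pde4b, and in 20.8% of all windows. In the lines that follow, capitals mark a half-site on either strand. The windows are Adcy5 (chr16:35154614-35154913, plus strand), Adcy9 (chr16:4420449-4420748, minus strand), 1 of the 2 windows of Akap7 (chr10:25297030-25297329, minus strand) and 1 of the 3 windows of Adcy7 (chr8:88282742-88283041, plus strand), all in GRCm38.p6.
Adcy5: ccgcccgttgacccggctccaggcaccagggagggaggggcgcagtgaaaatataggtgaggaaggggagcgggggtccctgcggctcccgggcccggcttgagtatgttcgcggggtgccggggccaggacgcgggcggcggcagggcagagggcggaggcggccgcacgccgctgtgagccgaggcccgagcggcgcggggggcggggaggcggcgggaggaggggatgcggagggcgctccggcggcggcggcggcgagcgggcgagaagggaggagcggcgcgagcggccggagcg
Adcy9: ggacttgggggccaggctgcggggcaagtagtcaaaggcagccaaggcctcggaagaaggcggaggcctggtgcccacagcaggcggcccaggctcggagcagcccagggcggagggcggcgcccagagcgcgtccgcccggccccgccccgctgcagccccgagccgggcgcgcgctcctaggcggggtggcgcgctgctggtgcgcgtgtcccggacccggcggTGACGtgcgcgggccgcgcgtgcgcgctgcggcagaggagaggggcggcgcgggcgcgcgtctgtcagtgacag
Akap7: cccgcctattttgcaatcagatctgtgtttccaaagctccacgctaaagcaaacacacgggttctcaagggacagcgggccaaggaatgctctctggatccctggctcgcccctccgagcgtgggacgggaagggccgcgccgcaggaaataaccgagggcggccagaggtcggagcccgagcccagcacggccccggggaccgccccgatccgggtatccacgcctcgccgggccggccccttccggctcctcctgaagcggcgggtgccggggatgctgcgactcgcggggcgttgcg
Adcy7: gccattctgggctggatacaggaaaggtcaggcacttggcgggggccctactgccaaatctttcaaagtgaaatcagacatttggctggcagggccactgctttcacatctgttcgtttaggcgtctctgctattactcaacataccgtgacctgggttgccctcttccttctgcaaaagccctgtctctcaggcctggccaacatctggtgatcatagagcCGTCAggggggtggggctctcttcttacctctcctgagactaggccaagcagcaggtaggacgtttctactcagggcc
The half-site of Adcy9 began 24 bases upstream of the start and that of Adcy7 28 bases upstream, where it lies on the opposite strand. The windows of Adcy5 and Adcy9 were 79% and 78.3% G and C with 44 and 42 CpG dinucleotides. The Akap7 window was 68.7% G and C with 33 CpG, and the Adcy7 window 54.7% with 6. A match describes letters only, and says nothing of a factor bound there.

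The arrays need a word before the members. Array medians lay between 111.1 and 115.15 on an intensity scale of 7.1 to 21704. PlGF replicate 1 stood apart from the rest, with a mean correlation of 0.974 to the arrays of other groups, where the remaining 7 had 0.991 to 0.993. Pgf, which encodes placental growth factor, read 4136.3 and 916.6 in the PlGF arrays, 300, 229 and 210.8 in the arrays labelled PlGF/RGS4 and 211.1, 348.9 and 387.1 in control arrays. Rgs4 read 235 and 194.9 in the PlGF arrays, 233.7, 186.9 and 229.3 in the arrays labelled PlGF/RGS4 and 209.5, 277.1 and 281.5 in control arrays. The label PlGF was borne out by Pgf, while neither transgene was above control in the arrays labelled PlGF/RGS4, so that group is named by its label throughout. Where the log2 fold change of a gene in PlGF hearts moved by over 1.5 times without PlGF replicate 1, that value is given too. With 1 PlGF array left, its spread is taken to be that of the other groups.

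A set of 5 members differed from control in the same way, by a wide margin in PlGF replicate 1 and a small one in replicate 2. For 4 of them (all but Adcy5) the PlGF hearts did not overlap with control hearts. That held for 6 of the 9 members in all, and for 33.9% of all genes. Adcy5, Adcy6, Adcy9 and Akap7 were lower in PlGF hearts and Adcy7 was higher, by 1.31-fold to 1.80-fold on average. None passed the test adjusted over all genes. Adcy3, Adcy4, Pde4b and Prkar2b lay within 1.11-fold of control.

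Adcy5 and Adcy6 are the cyclases inhibited by calcium, and they are the main isoforms of the cardiomyocyte. Adcy6 read 1144.8 and 1571.2 in PlGF hearts, 1708.2, 1702.2 and 1689.9 in the hearts labelled PlGF/RGS4 and 1691.9, 1779.8 and 1786.8 in control hearts. Both PlGF hearts were below all 6 others, and the group labelled PlGF/RGS4 overlapped with control. The mean intensity was 1358 ± 302 in PlGF hearts (SD, n = 2), 1700 ± 9.33 in those labelled PlGF/RGS4 (SD, n = 3) and 1753 ± 52.9 in control hearts (SD, n = 3). The log2 fold change of PlGF over control was -0.39 ± 0.12 (SE), or 1.31-fold lower, with limma adjusted p = 0.119 and exact permutation p = 0.1. With replicate 1 of PlGF left out the log2 fold change was -0.16 (limma adjusted p = 0.25).

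Adcy5 was low in 1 PlGF heart only. It read 346.3 and 594 in PlGF hearts, 610.8, 548.4 and 586.1 in the hearts labelled PlGF/RGS4 and 666.8, 586.1 and 612.7 in control hearts. PlGF replicate 2 lay inside the control range, so the groups overlapped. On the log2 scale PlGF over control was -0.45 ± 0.20 (limma adjusted p = 0.230), and -0.06 without PlGF replicate 1 (limma adjusted p = 0.922).

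Adcy9 encodes a widely expressed cyclase that responds weakly to forskolin. It read 269 and 420.7 in PlGF hearts, 487.5, 524 and 463 in the hearts labelled PlGF/RGS4 and 510.9, 466.1 and 463.5 in control hearts. As for Adcy6, the PlGF hearts were the lowest of the 8, and the other groups overlapped. PlGF over control came to a log2 fold change of -0.51 ± 0.17, or 1.42-fold lower, with limma adjusted p = 0.137 and exact permutation p = 0.1. Leaving out PlGF replicate 1 gave -0.19 (limma adjusted p = 0.429).

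Adcy7 is a cyclase stimulated by G protein beta-gamma subunits and is best known from blood and immune cells. It read 571.1 and 266.9 in PlGF hearts, 231.6, 229 and 233.7 in the hearts labelled PlGF/RGS4 and 202, 225.5 and 222.1 in control hearts. PlGF replicate 1 was at 263% of the control mean and replicate 2 at 123%, both above the other 6 hearts. The hearts labelled PlGF/RGS4 did not overlap with control either, at 231 ± 2.35 against 217 ± 12.7 (SD, n = 3 each). For PlGF over control the log2 fold change was 0.85 ± 0.27, or 1.80-fold higher, with limma adjusted p = 0.125 and exact permutation p = 0.1. Leaving out PlGF replicate 1 gave 0.30 (limma adjusted p = 0.127).

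Markers of leukocytes moved with Adcy7. Of 24 measured genes of a list of 25, 13 rose in PlGF hearts against control hearts and 0 fell (limma adjusted p under 0.05), and 11 rose without PlGF replicate 1. The median log2 difference of these markers from the control mean was 2.07 in PlGF replicate 1 and 0.83 in replicate 2, and it lay between -0.06 and 0.10 in the arrays labelled PlGF/RGS4. Their summed intensity was 19243 and 9754 in PlGF hearts, 4488 to 5776 in those labelled PlGF/RGS4 and 4901 to 5203 in control hearts. Ptprc, which encodes the leukocyte antigen CD45, read 1051 and 505.5 in PlGF hearts, 127.8 to 164.4 in those labelled PlGF/RGS4 and 147.5 to 162 in control hearts. Their part in the level of Adcy7 was not tested. In whole tissue, fewer cells of a type and less RNA per cell cannot be told apart.

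Adcy3, a cyclase best known from olfactory neurons, read 144.2 and 144.3 in PlGF hearts, 131.9, 135.6 and 133 in the hearts labelled PlGF/RGS4 and 129.9, 137.8 and 123.2 in control hearts. Both PlGF hearts lay above the other 6, and by the same amount. The difference was small, a log2 fold change of 0.15 ± 0.06, or 1.11-fold, with limma adjusted p = 0.188 and exact permutation p = 0.2. It was 0.09 with quantile normalization and 0.09 with each array centred on its median, where Adcy3 no longer had an unadjusted p under 0.05.

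Adcy4, a further cyclase stimulated by beta-gamma subunits, read 612.5 and 671.7 in PlGF hearts, 591.1, 621.6 and 570.9 in the hearts labelled PlGF/RGS4 and 580.2, 632.8 and 721.2 in control hearts. All 3 groups overlapped. The 95% confidence interval of the log2 fold change ran from -0.23 to 0.22 for PlGF over control.

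**Figure D1:**
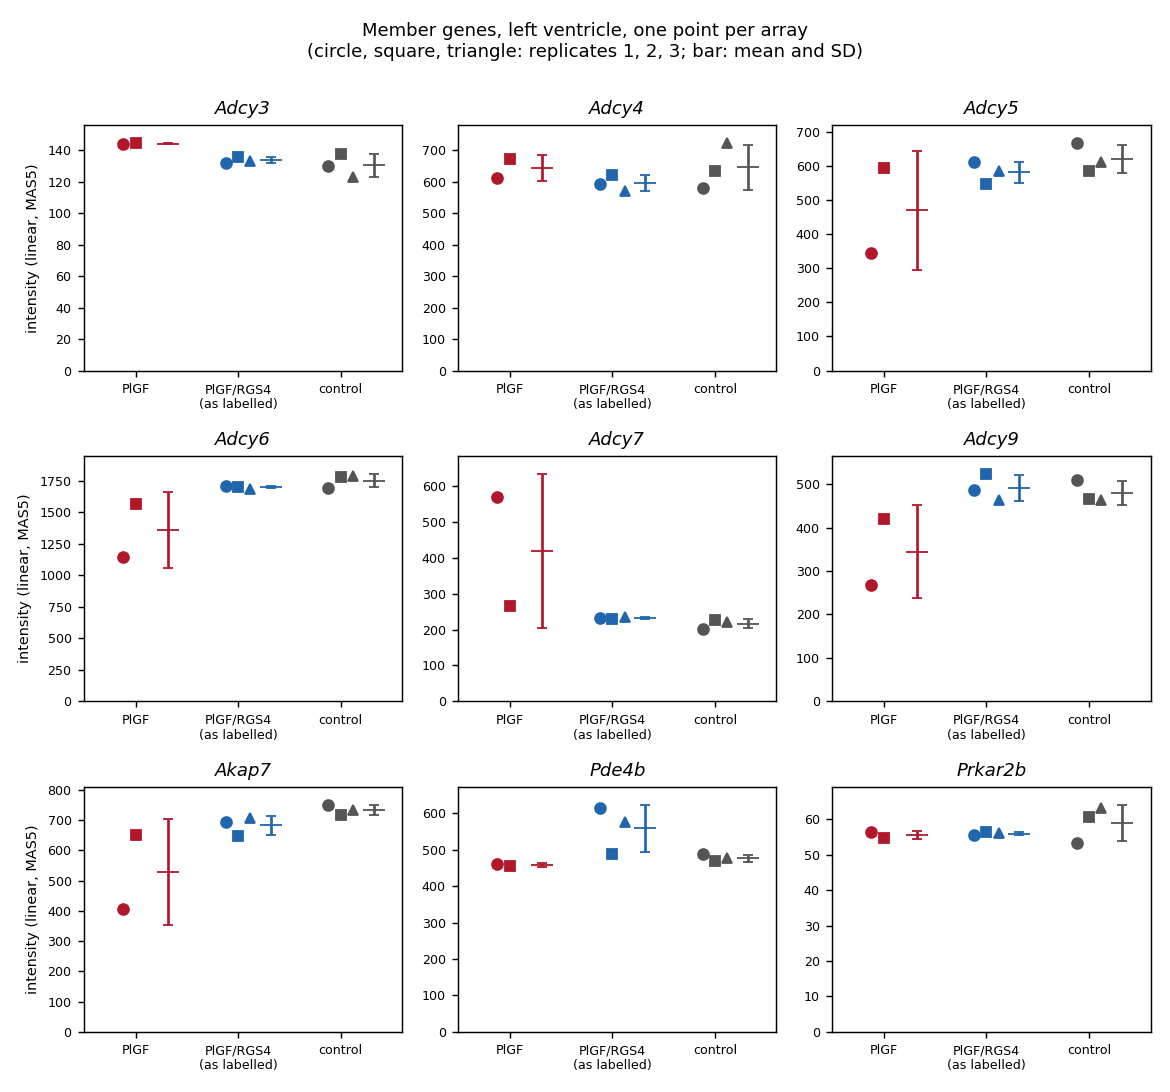
Deposited intensity (linear scale, from 0) of the 9 members in each array, with PlGF at the left, the arrays labelled PlGF/RGS4 in the middle and control at the right. Circles, squares and triangles are replicates 1, 2 and 3, and the bar is the mean with its SD (n = 2, 3 and 3). PlGF replicate 1 is the lowest array for Adcy5, Adcy6, Adcy9 and Akap7 and the highest for Adcy7.

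Downstream of cAMP, Akap7 anchors protein kinase A near the L-type calcium channel and phospholamban. It read 404.8 and 651 in PlGF hearts, 694.4, 646.8 and 705.6 in the hearts labelled PlGF/RGS4 and 750.7, 716.4 and 731.9 in control hearts. All 5 transgenic hearts were below all 3 control hearts, and the transgenic groups overlapped with each other. Set against control, PlGF hearts had a log2 fold change of -0.51 ± 0.17, or 1.43-fold lower, with limma adjusted p = 0.140 and exact permutation p = 0.1, and -0.17 without PlGF replicate 1 (limma adjusted p = 0.317). That of PlGF/RGS4 over control was -0.10 (95% confidence interval -0.46 to 0.25).

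Prkar2b, a type II regulatory subunit that keeps the kinase inactive until cAMP binds, was dim. It read 56.4 and 54.8 in PlGF hearts, 55.5, 56.4 and 56.1 in the hearts labelled PlGF/RGS4 and 53.2, 60.7 and 63.1 in control hearts, below the median of every array. The transgenic hearts lay within the control range.

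Pde4b, a cAMP-specific phosphodiesterase that limits beta-adrenergic signals, was the member for which all arrays of the transgenic groups lay on opposite sides of the control mean. It read 462 and 454.8 in PlGF hearts, 614, 487.1 and 574.9 in the hearts labelled PlGF/RGS4 and 487.1, 468 and 476 in control hearts. The PlGF hearts were the lowest of the 8, while in the group labelled PlGF/RGS4 replicates 1 and 3 were the highest and replicate 2 equalled a control heart. The log2 fold change was -0.06 ± 0.09 for PlGF over control (limma adjusted p = 0.748) and 0.22 ± 0.08 for PlGF/RGS4 over control (limma adjusted p = 0.945). The difference between these effects, which is PlGF over PlGF/RGS4, was -0.28 ± 0.09 (limma adjusted p = 0.183).

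Counted over the comparison of PlGF with control, 0 of 9 members passed limma's adjusted test at 0.05, and 2.53% of all genes did. At an unadjusted p under 0.05 there were 5 of 9 (Adcy3, Adcy6, Adcy7, Adcy9 and Akap7), where all genes gave 22.6%. The groups did not overlap for 6 of 9, these 5 and Pde4b, where all genes gave 33.9%. Without PlGF replicate 1, 3 of 9 members and 14.1% of all genes had an unadjusted p under 0.05. Without PlGF replicate 2, which leaves only the array that stood apart, the log2 fold changes were larger in size. They were -0.84 for Adcy5, -0.61 for Adcy6, -0.83 for Adcy9, -0.85 for Akap7 and 1.40 for Adcy7. With all arrays, the median log2 fold change was -0.08 over the members and -0.03 over all genes. The calls over all genes were 356 higher and 149 lower, and 376 higher and 317 lower once each array was centred on its median, a setting under which no member was called either.

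The exact permutation test could not go below p = 0.1 for 2 arrays against 3 or for 3 against 3. It gave 0.1 for Adcy6, Adcy7, Adcy9 and Akap7 in PlGF against control.

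**Figure D2:**
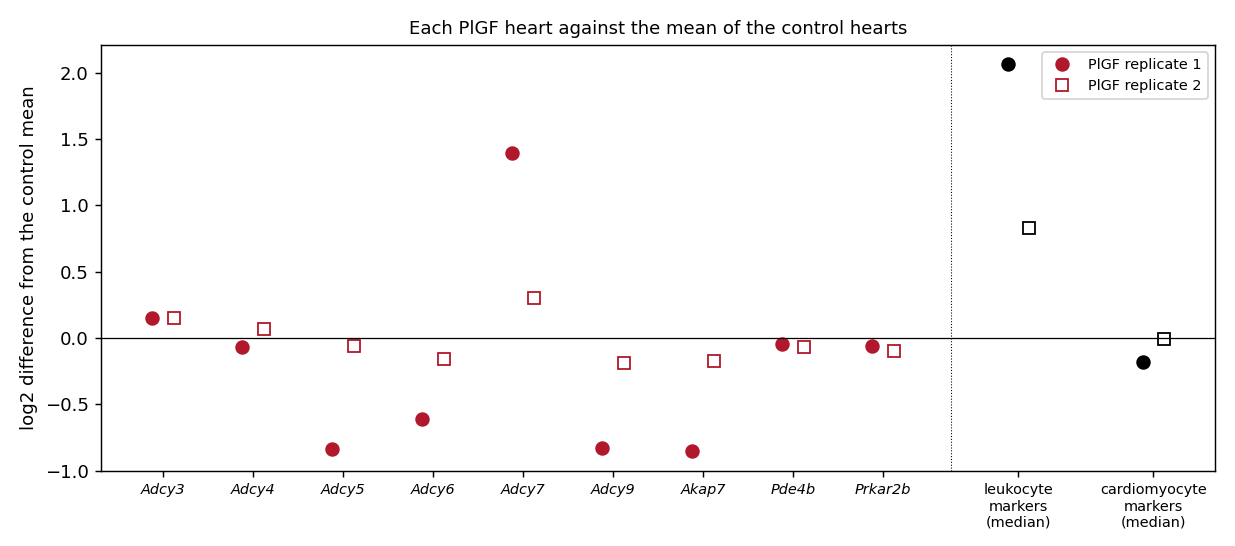
Log2 difference of each PlGF heart from the mean of the 3 control hearts, for the 9 members (red) and for the median of the leukocyte and cardiomyocyte marker lists (black); filled circles are replicate 1 and open squares replicate 2. Adcy5, Adcy6, Adcy9 and Akap7 are at -0.61 to -0.85 in replicate 1 and at -0.06 to -0.19 in replicate 2, and Adcy7 is at 1.40 and 0.30.

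The pattern of 5 members across arrays was thus largely that of 1 heart. In PlGF replicate 1, Adcy5 was at 55.8%, Adcy6 at 65.4%, Adcy9 at 56.2% and Akap7 at 55.3% of the control mean. In PlGF replicate 2 the same genes were at 95.7%, 89.7%, 87.7% and 88.8%. Over the 8 arrays, Pearson's r between pairs of these 4 genes ran from 0.92 to 0.98, and r of each with Adcy7 from -0.99 to -0.97. Over the 6 arrays of the other groups the same pairs ran from -0.58 to 0.87, and those with Adcy7 from -0.79 to 0.06. The arrays of a group share its genotype, and these values describe the arrays only. Of the cardiomyocyte marker list, 17 of 17 were measured and 0 passed the adjusted test in either direction. By unadjusted p 4 were lower and 0 higher in PlGF hearts than in control hearts, where all genes gave 22.6% in both directions together. In PlGF replicate 1, 13 markers were below every control array and 2 above (Nppa and Nppb). In replicate 2, 7 were below and 2 above. The summed intensity of the list was 162690 and 179131 in PlGF hearts, 177821 to 178886 in those labelled PlGF/RGS4 and 181392 to 185533 in control hearts. Its median log2 difference from control was -0.18 in PlGF replicate 1 and -0.01 in replicate 2. The part of the marker shift in the members' levels was not tested.

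The genes most like Adcy6 over the 8 arrays were Crip2, Tcea3 and Adhfe1, with r of 0.997, 0.996 and 0.995. Crip2 read 4827.7 and 7636.6 in PlGF hearts, 8531.1 to 8652.9 in those labelled PlGF/RGS4 and 8709.5 to 9333.7 in control hearts. The genes most like Adcy7 were Tpx2, Cd200r4 and Stx7, each with r of 0.996. Tpx2, a spindle assembly factor of dividing cells, read 113.5 and 49.8 in PlGF hearts, 43.4 to 45.7 in those labelled PlGF/RGS4 and 37.7 to 45.7 in control hearts. In each case PlGF replicate 1 was the array farthest from the rest.

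The comparison of PlGF/RGS4 with control goes by label only, since neither Pgf nor Rgs4 was above control in these arrays. In it the members stayed close to control. Of 9 members 0 passed limma's adjusted test, and 0.0151% of all genes did. At an unadjusted p under 0.05 there was 1 of 9, Pde4b, where all genes gave 5.02%. The groups did not overlap for 2 of 9, Akap7 (lower) and Adcy7 (higher), where all genes gave 12.8%. Log2 fold changes ran from -0.11 for Adcy4 to 0.22 for Pde4b. For Adcy6 the 95% confidence interval ran from -0.29 to 0.20 and for Adcy9 from -0.32 to 0.38, and the mean changes of the 2 PlGF hearts lay outside them, while those of PlGF replicate 2 alone, -0.16 and -0.19, lay inside. For Adcy5 it ran from -0.51 to 0.32, which includes the PlGF value.

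The comparison of PlGF with PlGF/RGS4 tests the difference between the effects directly, since both are taken over the same 3 control hearts. Of 9 members 0 passed limma's adjusted test, and 1.19% of all genes did. At an unadjusted p under 0.05 there were 5 of 9 (Adcy6, Adcy7, Adcy9, Akap7 and Pde4b), where all genes gave 19.5%. The groups did not overlap for 5 of 9 (Adcy3, Adcy6, Adcy7, Adcy9 and Pde4b), where all genes gave 32.5%. The log2 fold change was -0.34 ± 0.12 for Adcy6 (limma adjusted p = 0.190), -0.54 ± 0.17 for Adcy9 (limma adjusted p = 0.162), -0.41 ± 0.17 for Akap7 (limma adjusted p = 0.25) and 0.75 ± 0.27 for Adcy7 (limma adjusted p = 0.198). Leaving out PlGF replicate 1 gave -0.11 for Adcy6, -0.22 for Adcy9, -0.07 for Akap7 and 0.20 for Adcy7, with limma adjusted p from 0.367 for Adcy7 to 0.913 for Akap7. Without PlGF replicate 1, 2 of 9 members and 10.6% of all genes had an unadjusted p under 0.05, and Adcy5 changed sign, at 0.03 against -0.36 with both arrays. Without PlGF replicate 2, which leaves only the array that stood apart, the log2 fold changes were larger in size. They were -0.75 for Adcy5, -0.57 for Adcy6, -0.87 for Adcy9, -0.75 for Akap7 and 1.30 for Adcy7.

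**Figure D3:**
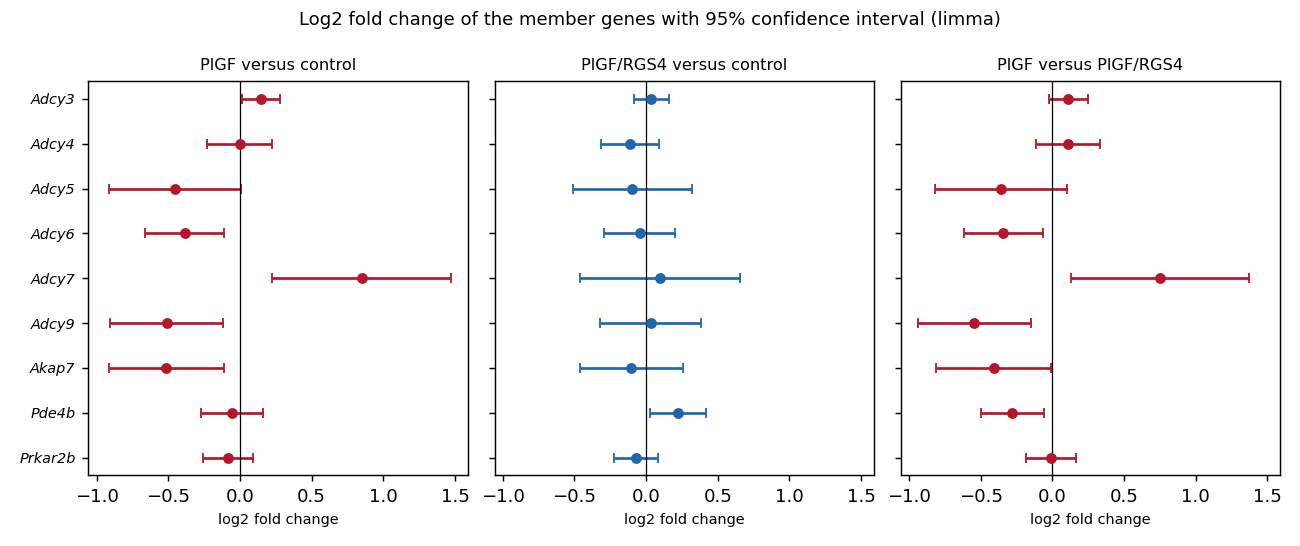
Log2 fold change of the 9 members with its 95% confidence interval (limma, all 8 arrays in 1 fit) with PlGF over control at the left, PlGF/RGS4 over control in the middle and PlGF over PlGF/RGS4 at the right. In the middle panel every interval but that of Pde4b holds 0, and in the left panel those of Adcy3, Adcy6, Adcy7, Adcy9 and Akap7 do not.

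The rest of the pathway was read from a list of 81 genes grouped by role, of which 71 were measured. In PlGF hearts against control hearts 0 rose and 2 fell by limma's adjusted test, against 2.53% of all genes called, and by unadjusted p 9 were higher and 13 lower (31% of the 71, against 22.6% of all genes). Their median log2 fold change was -0.06, against -0.03 over all genes, and -0.00023 without PlGF replicate 1. Without PlGF replicate 1, 1 of the 2 (Pde1c) was still called. In the hearts labelled PlGF/RGS4 0 of 71 passed in either direction (4 higher and 3 lower unadjusted, where all genes gave 5.02%). In PlGF against PlGF/RGS4 it was likewise 0 (7 higher and 10 lower unadjusted, 23.9% of the 71, where all genes gave 19.5%).

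Pde1c, a calcium-calmodulin-activated phosphodiesterase of cAMP and cGMP, read 229.5 and 316 in PlGF hearts, 369.3, 387.3 and 419.7 in the hearts labelled PlGF/RGS4 and 483.4, 449.5 and 498.5 in control hearts. The 3 groups were fully separated, in that order. It fell in PlGF hearts, with a log2 fold change over control of -0.82 ± 0.13 (limma adjusted p = 0.0296), and -0.59 without PlGF replicate 1 (limma adjusted p = 0.0373). That of PlGF/RGS4 over control was -0.28 ± 0.12 (limma adjusted p = 0.971). The call on PlGF was lost on leaving out any control array or any array labelled PlGF/RGS4, at adjusted p up to 0.124, and with only the 2 groups compared (adjusted p = 0.2 in limma).

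Pkig, an inhibitor peptide of the kinase A catalytic subunit, read 583.7 and 538.6 in PlGF hearts, 677.7, 652 and 619 in the hearts labelled PlGF/RGS4 and 808, 790.8 and 696.5 in control hearts. Here PlGF replicate 2 was the lower of the pair, unlike for Adcy5, Adcy6, Adcy9 and Akap7, and the 3 groups were again separated in the same order. Pkig fell in PlGF hearts, with a log2 fold change over control of -0.44 ± 0.08 (limma adjusted p = 0.0418) and -0.50 without PlGF replicate 1 (limma adjusted p = 0.0793). Of the 8 fits that left out 1 array, 1 kept the call, the one without PlGF replicate 2, and the adjusted p went up to 0.131. With only the 2 groups compared, limma's adjusted p was 0.219.

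Of the other phosphodiesterases, Pde3a, the main cAMP phosphodiesterase at the sarcoplasmic reticulum, read 586.1 and 907.6 in PlGF hearts, 870.8 to 987.3 in those labelled PlGF/RGS4 and 1081.1 to 1233.7 in control hearts (log2 fold change of PlGF over control -0.63 ± 0.17, limma adjusted p = 0.0916). It was -0.32 without PlGF replicate 1 (limma adjusted p = 0.247). Among the 13 phosphodiesterases beside Pde4b, 1 fell by the adjusted test, and unadjusted there were 4 lower and 0 higher, where all genes gave 22.6% in both directions together.

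Upstream, of 10 G protein subunits 0 passed the adjusted test, with 4 higher and 1 lower unadjusted, where all genes gave 22.6% in both directions together. Gnao1, an inhibitory alpha subunit, read 771 and 708.7 in PlGF hearts, 678.4, 752.5 and 723.6 in the hearts labelled PlGF/RGS4 and 596.1, 589.9 and 540.7 in control hearts. It was higher in all 5 transgenic hearts than in any control heart, with a log2 fold change of 0.36 ± 0.07 for PlGF over control (limma adjusted p = 0.0501) and 0.32 ± 0.06 for PlGF/RGS4 over control (limma adjusted p = 0.764). Gnai2, which inhibits adenylyl cyclase, was at 0.29 ± 0.06 for PlGF over control (limma adjusted p = 0.0653). The other Gnai genes did not both go the same way. Gnai1, the 1 lower subunit, read 81.4 and 91.9 in PlGF hearts against 99.8 to 123.5 in control hearts (-0.38 ± 0.09, limma adjusted p = 0.0796). Gnai3 was higher on average (0.17 ± 0.08, limma adjusted p = 0.268) but overlapped with control, at 413 and 345.7 against 319.5 to 353.3.

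Among receptor kinases and arrestins, which shut off active receptors, 0 of 5 passed the adjusted test. By unadjusted p 3 were higher, where all genes gave 22.6% in both directions together. Arrb2 read 456.1 and 274.4 in PlGF hearts against 232.8 to 238.4 in control hearts, and Grk3 320.7 and 150.3 against 127.8 to 143.6. Without PlGF replicate 1 their log2 fold changes were 0.22 and 0.16, against 0.58 and 0.70 with both arrays. The leukocyte markers given beside Adcy7 were also higher in both PlGF hearts, and their part in these levels was not tested. Of the alpha-1 receptors, Adra1b read 186.5 and 300.2 in PlGF hearts against 326.8 to 359.3 in control hearts (log2 fold change -0.53, limma adjusted p = 0.134), and was at -0.18 without PlGF replicate 1 (limma adjusted p = 0.291).

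Among the other groups, values outside the adjusted threshold were the rule. The 4 remaining cyclases had 0 calls, with a log2 fold change of -0.41 for the dim Adcy8 (limma adjusted p = 0.0600) and -0.21 for Adcy1. Of 9 anchors beside Akap7, 0 were called, with -0.25 for Akap8 and -0.22 for Akap6 (-0.12 without PlGF replicate 1), and Pkib, an inhibitor of the kinase, was at 0.15. Of 12 further effectors and members of the CREB family 0 were called, with -0.17 for Popdc2, a cAMP-binding membrane protein, and 0.11 for the CREB coactivator Crtc1.

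Of 10 cardiac substrates of kinase A 0 were called, with 3 lower and 0 higher unadjusted, near the 22.6% that all genes gave in both directions together. Ryr2, the calcium release channel, read 3573.3 and 6479 in PlGF hearts, 6631.9 to 7288.7 in those labelled PlGF/RGS4 and 7693.7 to 8408 in control hearts (log2 fold change of PlGF over control -0.73 ± 0.21, limma adjusted p = 0.107). Cacna1c, the pore of the L-type calcium channel, was at -0.63 ± 0.18 (limma adjusted p = 0.0992), and without PlGF replicate 1 these were -0.30 and -0.28. Ryr2, Pln, Tnni3 and Mybpc3 are also in the cardiomyocyte marker list given above, so the levels of that list and of these substrates are not independent. Their mean level was lower in PlGF hearts than in control hearts, except for Mybpc3. The part of the marker shift in the substrates' levels was not tested.

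**Figure D4:**
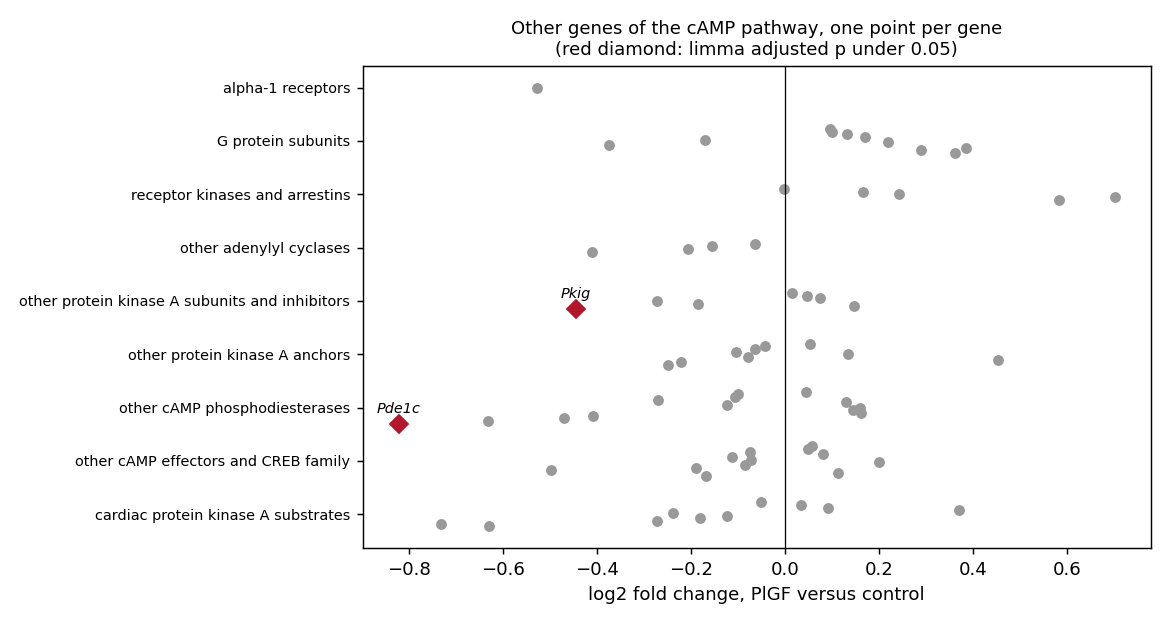
Log2 fold change of PlGF over control for the 71 other genes of the pathway, 1 point per gene, grouped by role. The red diamonds, Pkig (-0.44) and Pde1c (-0.82), passed limma's adjusted test at 0.05.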

How the data were processed

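Left ventricular RNA was labelled and hybridised to Affymetrix Mouse Gene 1.0 ST arrays, 8 in all. The authors deposited linear intensity values, 1 per probe set, made with MAS5 and global scaling, per the methods and the submitters' notes. These arrays carry no mismatch probes, which MAS5 as first designed uses, so how probes were summarised is not fully given in the sources used here. No build is named for the arrays, and coordinates of promoters and of miR-182 are those of RefSeq on GRCm38.p6. All 8 deposited columns were used and 0 left out. Of 28440 probe sets, 5042 had no gene symbol and 1618 several, and 21780 had 1. The brightest probe set of each gene gave 19933 genes. A symbol missing from the probe table is not analysed here.

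Intensities were taken as log2(intensity + 1), which understates the change of dim genes. All 8 arrays entered a single limma model (version 3.58.1, R 4.3.3, lmFit and eBayes) of 3 group means, from which each comparison was taken as a two-sided contrast with Benjamini-Hochberg adjustment over the 19933 genes and a threshold of 0.05. The eBayes prior held 2.41 degrees of freedom (SD 0.0813, log2). Single genes also had two-sided exact permutation tests over 10 or 20 arrangements of the arrays. The script was tested on simulated data. For arrays, the number of arrays limits the precision. No scan data or background values were at hand, so background correction and slide were not varied.

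The members and lists were chosen with earlier results of these data known. The text names all members, up to 2 genes of each role list with the smallest unadjusted p in PlGF versus control and any that passed the adjusted test, the 3 genes most correlated with Adcy6 and with Adcy7, and Pgf and Rgs4. Mir182, Ptprc, Gnai1, Gnai3 and the leave-out counts were added after the values were seen.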

Additional observations from a re-analysis of the deposited data

Results flagged for a closer look

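Pde4b was flagged because the arrays of the 2 transgenic groups lay on opposite sides of the control mean. Both PlGF arrays were below it, by 1.03-fold and 1.05-fold. All 3 arrays labelled PlGF/RGS4 were above it, replicate 2 by only 1.02-fold. How many of all genes show such a pattern was not counted. The difference between the effects, PlGF over PlGF/RGS4, was -0.278 on the log2 scale (limma adjusted p = 0.183), so it did not pass the test over all genes. Left out one at a time, the arrays gave differences from -0.373 to -0.207.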

How the results depend on the processing

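Of 453 values recomputed for the members under the alternatives, 434 kept their direction and their side of the threshold, 10 passed the threshold where the fit to all arrays had not, 9 changed sign and 0 lost a call. The 10 were Adcy5, Adcy6, Adcy7, Adcy9 and Akap7 without PlGF replicate 2, in both comparisons of PlGF: on leaving out 1 array, members called ran from 0 to 5 in PlGF versus control and from 0 to 5 in PlGF versus PlGF/RGS4, and 0 were called under every other alternative run. Sign changes were all near 0 except that of Adcy5. With 1 array left out, Adcy4 in PlGF versus control ran from -0.0747 to 0.0820, Adcy3 in PlGF/RGS4 versus control from -0.0032 to 0.0769, Adcy9 in PlGF/RGS4 versus control from -0.0138 to 0.0786, Adcy5 in PlGF versus PlGF/RGS4 from -0.745 to 0.0314 and Prkar2b in PlGF versus PlGF/RGS4 from -0.0307 to 0.0101. Quantile normalization put Prkar2b in PlGF versus PlGF/RGS4 at 0.0035. Prkar2b, Adcy3 and other dim genes gave no value when only genes above the median level were kept.

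Genes called in PlGF versus control were 505 in the fit to all arrays, 0 with only the 2 groups compared, 4 by the methods' t-test after adjustment and 17 to 5921 with 1 array left out (366 without PlGF replicate 1, 5921 without PlGF replicate 2). In PlGF/RGS4 versus control they were 3, against 0 with 2 groups, 0 by the methods' t-test and 0 to 1 with 1 array left out. In PlGF versus PlGF/RGS4 they were 237, against 138 with 16 added in place of 1, 110 among genes above the median level, 1 with 2 groups, 5 by the methods' t-test and 11 to 5591 with 1 array left out. Fewer arrays in a fit leave fewer degrees of freedom. A fit without 1 of the 2 PlGF arrays also no longer holds the spread between the PlGF hearts. The part of each in these counts was not tested.

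The labels do not say that the replicate numbers pair the samples. Deviations of same-numbered arrays from their group means correlated from -0.217 to 0.296. Arrays of different numbers were not compared in this way, so these values cannot decide whether same-numbered arrays share a batch. With a replicate block the genes called were 27, 0 and 26 in the 3 comparisons, 0 members were called, Adcy4 in PlGF versus control was at 0.0258 and Prkar2b in PlGF versus PlGF/RGS4 at 0.0151. Pde1c and Pkig in PlGF versus control were not called with the replicate block either (limma adjusted p = 0.106 and 0.0734), nor by the methods' t-test.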

Other observations

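In 27.9% of the 6158 probe sets with a mean intensity over 500, at least 2 of the 8 arrays hold the same value to the 1 decimal of the deposited table, and in 2.21% at least 4 do. Over all 28440 probe sets, dim ones included, at least 2 arrays hold 1 value in 57.6%. Among the 9 members this holds for 3: Adcy5 is 586.1 in 1 array labelled PlGF/RGS4 and in 1 control array, Pde4b is 487.1 in 1 of each, and Prkar2b is 56.4 in 1 PlGF array and 1 labelled PlGF/RGS4. How such equal values arose was not tested.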
